A study of Mus musculus with 12 samples.

Results

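SOX proteins are transcription factors that bind DNA through an HMG box related to that of SRY, and 10 SOX genes of progenitors and neurons were followed here in the neocortex of mouse embryos at embryonic day 16. They were taken by symbol from a deposited table of 23352 gene rows, and all 10 were found in it, each in 1 row. By group they are the SOXB1 genes Sox1, Sox2 and Sox3, the SOXB2 gene Sox21, the SOXC genes Sox4, Sox11 and Sox12, the SOXD genes Sox5 and Sox6, and the SOXE gene Sox9. In the developing brain SOXB1 factors hold neural progenitors in their undifferentiated state, and Sox21 counteracts them, as shown in chick. SOXC factors act in cells that leave the cycle and turn on neuronal genes. SOXD proteins have no activation domain of their own: Sox5 sets the order in which deep-layer projection neurons form, and Sox6 acts in pallial progenitors and in interneurons of the medial ganglionic eminence. Sox9 acts in radial glia and in the start of gliogenesis.

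The study used 4 groups of microdissected neocortex on a C57BL/6 background, all at the same age. The Nfia{tm1Rmg} line gave 2 wild-type libraries and 4 libraries labelled homozygous Nfia knockout, and the Nfib{tm1Rmg} line gave 2 wild-type libraries and 4 homozygous Nfib knockout libraries. The labels name no Cre driver or tissue-limited deletion, and the housing notes name the Nfia allele for both lines, so the line of each library was taken from its strain label. Nothing in the labels ties libraries to single embryos or litters, so a p-value may measure technical spread only. NFIA and NFIB are factors that move progenitors towards neurons and glia, and the comparisons set each group labelled knockout for one of them against the wild types of its line.

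Values are the authors' weighted group averages in FPKM, fragments counted per transcript length and library size, so levels may be compared between genes, while no value per library, no spread and no depth can be given. A gene was called where the authors' q-value was under 0.05, and folds are knockout over wild type of the same line on the log2 scale. The Nfib transcript stood at 134 FPKM in its wild types and 9.12 in the Nfib knockouts. Nfia stood at 33.7 in its own wild types and 28.2 in the labelled Nfia knockouts (log2 fold -0.27, q = 0.477 per the authors' deposited table). In that comparison the Nfia transcript level does not bear out the label, and loss of the protein cannot be read from it. Nfix passed the threshold in that comparison, going from 165 to 108 FPKM, with -0.62 (q = 0.00286) per the authors' deposited table. Nfib was lower there too, at 190 and 142 FPKM, but did not pass (-0.43, q = 0.117 per the authors' deposited table). The wild-type groups also differed in sex-linked transcripts, chosen for a look after the values were seen. Xist, made by the inactive X chromosome, was at 161 FPKM in wild types of the Nfia line against 0.207 in those of the Nfib line, and the Y-linked Ddx3y at 0.0330 against 11.5. The knockout groups stood between them, with Xist at 77.0 and 86.0 and Ddx3y at 7.29 and 5.89 FPKM in the Nfia and Nfib knockouts. Sex-linked transcripts thus differed within both comparisons too: the authors' deposited table gives Xist a log2 fold of -1.08 for Nfia (q = 0.00286) and 8.73 for Nfib (q = 0.00207). Sex cannot be told apart from line between the wild types, nor from genotype within a line, and its part in the SOX folds was not tested. The neocortical marker Emx1 was present in all 4 groups, at no less than 25.2 FPKM.

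All 10 SOX genes were at or above 1 FPKM in every group and were tested in both comparisons. In the Nfib knockouts 4 of the 10 rose, namely Sox3, Sox21, Sox5 and Sox6, none fell and 6 did not pass the threshold. Over all genes tested in that comparison 5.39% were called, 2.13% higher and 3.26% lower. In the labelled Nfia knockouts 0 of the 10 passed in the authors' deposited Cuffdiff table, and 0 had an unadjusted p under 0.05. The background there was 3.79% of genes, 2.69% higher and 1.10% lower. In bulk tissue, a change in the number of cells of a type and a change in transcript per cell cannot be told apart. Whether the response of any SOX gene differs between the 2 lines was not tested, since the table holds no value per library.

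The upstream regions of genes that rose in the Nfib knockouts are shown because NFI proteins bind DNA at the half-site TTGGCA, of which a palindromic pair makes the full site. RefSeq windows on GRCm38.p6, from 250 bases before to 50 bases after an annotated start, were matched for 8 of the 10 genes, all but Sox3 and Sox9, 13 windows in all. That build is not the mm9 build the submitters name, and the table does not say which start the measured transcripts used. Searched on both strands, the half-site (TTGGCA or TGCCAA) stood in 3 of the 13 windows, 1 each of Sox4, Sox5 and Sox6, and the other 5 windows of Sox6 had none, against 14.1% of 32851 windows of all genes. None of the 3 overlapped a CCAAT box, whose complement ATTGG shares letters with the half-site. The full palindrome, TTGGC and GCCAA with 5 free bases between them, stood in none of the 13 and in 0.0365% of all windows. A match is a description of letters, not of binding, and no match says only that the letters are not in this window. The windows of Sox5 and Sox21 and the Sox6 window with a half-site follow, all 3 on the minus strand and written 5′ to 3′ along the gene, with half-sites in capitals. Counted from the start, the first base of the half-site is at -122 in the Sox5 window and at -168 in the Sox6 window.
Sox5, chr6:143947057-143947356: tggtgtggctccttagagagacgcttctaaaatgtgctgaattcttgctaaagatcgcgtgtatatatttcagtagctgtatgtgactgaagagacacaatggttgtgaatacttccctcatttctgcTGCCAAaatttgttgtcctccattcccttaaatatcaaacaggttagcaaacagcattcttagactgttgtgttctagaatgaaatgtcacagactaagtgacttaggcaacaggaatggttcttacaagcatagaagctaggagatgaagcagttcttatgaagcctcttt
Sox6, chr7:115824661-115824960: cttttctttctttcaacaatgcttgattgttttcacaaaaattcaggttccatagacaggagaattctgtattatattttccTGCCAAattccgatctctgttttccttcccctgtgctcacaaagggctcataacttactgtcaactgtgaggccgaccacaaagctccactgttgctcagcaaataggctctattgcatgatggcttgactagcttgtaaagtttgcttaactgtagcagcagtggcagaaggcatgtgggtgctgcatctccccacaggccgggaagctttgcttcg
Sox21, chr14:118236981-118237280: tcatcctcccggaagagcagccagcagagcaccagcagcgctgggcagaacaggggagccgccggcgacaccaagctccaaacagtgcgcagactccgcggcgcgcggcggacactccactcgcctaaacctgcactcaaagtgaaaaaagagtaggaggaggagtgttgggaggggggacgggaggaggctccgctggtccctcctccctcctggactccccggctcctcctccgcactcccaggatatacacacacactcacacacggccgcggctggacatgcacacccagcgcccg
The Sox21 window held no half-site and was 65.7% G and C, against 39.7% in that of Sox5.

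**Figure D1:**
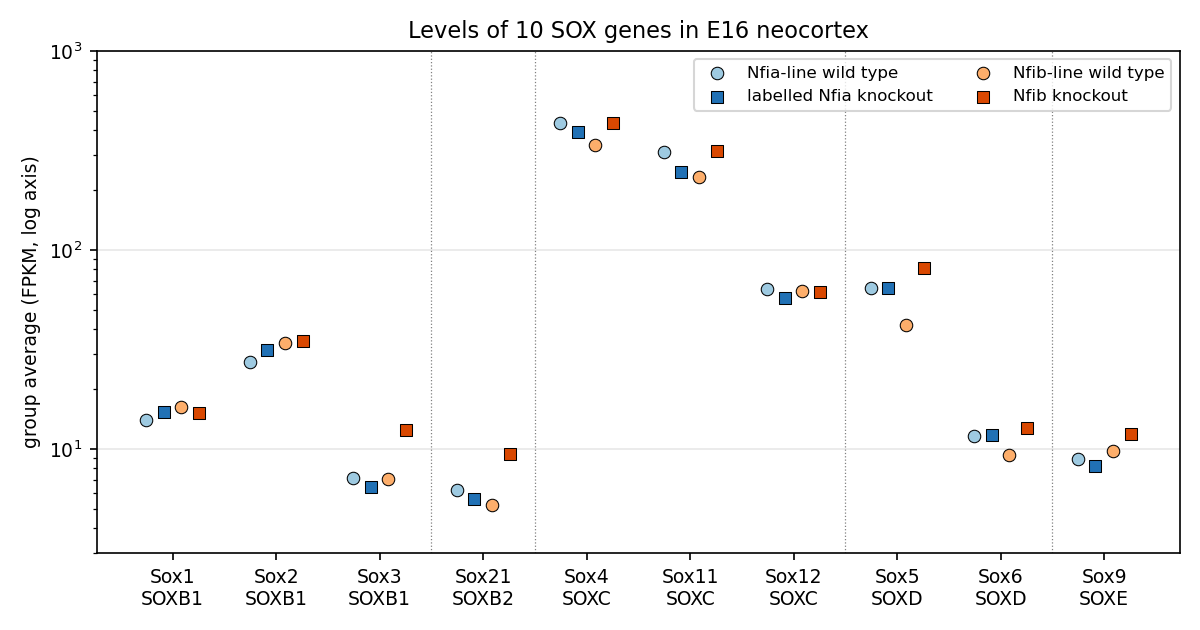
Group averages in FPKM on a log axis for the 10 SOX genes, 1 point per group, with circles for wild types and squares for knockouts, blue for the Nfia and orange for the Nfib line. Sox4 and Sox11 lie above the other genes, at 233 FPKM or more in every group, and the Nfib knockouts are the highest group for 8 of the 10 genes.

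The levels spanned a wide range and kept nearly the same order in every group. Sox4 was highest and Sox11 next in each group, Sox2 and then Sox1 followed Sox5 and Sox12, and Sox21 was last. In the Nfia-line wild types and the group labelled Nfia knockout the whole order of the 10 genes was the same. Sox5 and Sox12 changed places in the Nfib-line wild types, at 41.9 and 62.4 FPKM, as did Sox6 and Sox9, at 9.35 and 9.81. Sox3 stood above Sox9 only in the Nfib knockouts, at 12.5 against 11.9 FPKM. Neighbours this close cannot be ordered, since no spread is known. The SOXC genes together held 82.0% to 85.3% of the summed FPKM of the 10 genes. Their sum was 16.7, 13.0, 11.0 and 13.0 times that of the SOXB1 genes in the Nfia-line wild types, the group labelled Nfia knockout, the Nfib-line wild types and the Nfib knockouts. By level the Nfib knockouts were highest for 8 of the 10 genes, all but Sox1 and Sox12, and the Nfib-line wild types lowest for 5, namely Sox21, Sox4, Sox11, Sox5 and Sox6.

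Among the SOXB1 genes, Sox3 was the only one that passed the threshold, in the Nfib comparison. Sox3, an X-linked gene of early neural progenitors, stood at 7.15 FPKM in the Nfia-line wild types, 6.46 in the labelled Nfia knockouts, 7.09 in the Nfib-line wild types and 12.5 in the Nfib knockouts. Only the Nfib knockouts stood apart, and both wild-type groups were at nearly 1 level. The part of sex in these levels was not tested. For the Nfib comparison the authors' deposited table gives Sox3 a log2 fold of 0.83 (q = 0.00207), and the error its p-value implies is at most 0.21. Computed with the Nfia-line wild types in place of its own, the fold was 0.79. In the labelled Nfia knockouts it was -0.16 in the authors' deposited table (q = 0.972). Such an error is the fold over the normal deviate matching its p-value, and it is an upper limit where p is 5e-05, the smallest in the table.

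Sox2, the SOXB1 factor that marks neural stem cells, stood at 27.2 FPKM in the Nfia-line wild types, 31.3 in the labelled Nfia knockouts, 33.9 in the Nfib-line wild types and 34.8 in the Nfib knockouts. Its log2 folds of 0.19 (q = 0.918) for Nfia and 0.063 (q = 0.998) for Nfib per the authors' deposited table did not pass the threshold. With the wild types of the other line the Nfia fold was -0.11 and the Nfib fold 0.35, so both varied with the wild types used. The approximate 95% interval implied by the p-value was -0.27 to 0.40 in the Nfib comparison, so a modest change either way is not shown to be absent. Sox2 lies inside the longer noncoding gene Sox2ot on the same strand in GENCODE M21, and how the authors shared out reads there is not given in the sources used here. The authors' deposited table gives Sox2ot 0.24 (q = 0.971) for Nfia and -0.39 (q = 0.695) for Nfib on the log2 scale.

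Sox1, the third SOXB1 gene, stood at 14.0, 15.3, 16.3 and 15.1 FPKM in the same order of groups, the narrowest range of the SOXB1 genes. Neither log2 fold passed, 0.12 (q = 0.999) for Nfia and -0.078 (q = 0.998) for Nfib per the authors' deposited table. With the wild types of the other line these folds of Sox1 were -0.084 and 0.11. Within the SOXB1 sum, Sox3 made up 14.8%, 12.2%, 12.4% and 20.0% in that order of groups, and Sox2 55.8% to 59.2%. The make-up of the group was thus shifted towards Sox3 in the Nfib knockouts, while the SOXB1 sum went from 57.3 to 62.4 FPKM. In the Nfia-line wild types that sum was 48.4 FPKM.

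Sox21, the SOXB2 gene, stood at 6.24 FPKM in the Nfia-line wild types, 5.58 in the labelled Nfia knockouts, 5.25 in the Nfib-line wild types and 9.49 in the Nfib knockouts. As for Sox3, the Nfib knockouts stood above all other groups. The wild types lay further apart than for Sox3, with those of the Nfib line lower by 0.25 on the log2 scale. The log2 fold was 0.87 in the authors' deposited table (q = 0.00207), with an implied error of at most 0.22, and 0.60 when computed with the Nfia-line wild types. For Nfia it was -0.17 in the authors' deposited table (q = 0.935). Of 12426 genes at 1 FPKM or more, 0.740% had a larger Nfib fold than Sox21 and 0.877% a larger one than Sox3.

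The SOXC genes were the most abundant, and none of them passed the threshold in either comparison. Sox4, which with Sox11 switches on pan-neuronal genes, stood at 434 FPKM in the Nfia-line wild types, 389 in the labelled Nfia knockouts, 335 in the Nfib-line wild types and 435 in the Nfib knockouts. Sox11 stood at 309, 245, 233 and 313 FPKM in that order. For both genes the Nfib-line wild types were the lowest group, and the Nfib knockouts stood at nearly the level of the Nfia-line wild types.

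The Nfib log2 folds were 0.40 for Sox4 (p = 0.0169, q = 0.186) and 0.45 for Sox11 (p = 0.0297, q = 0.269) in the authors' deposited table. With the Nfia-line wild types the same folds were 0.0048 and 0.018. The direction in the labelled Nfia knockout was the other way for both, at -0.17 (q = 0.923) and -0.35 (q = 0.527) per the authors' deposited table, and against the Nfib-line wild types it was 0.22 and 0.078. The signs for Nfia, and the size of the Nfib folds, thus varied with the wild types used. Sox12, the weakest activator of the group, stood at 63.8, 57.2, 62.4 and 61.7 FPKM, the narrowest range of all 10 genes, 1.12 times from lowest to highest group. Its log2 folds were -0.17 (q = 0.829) and 0.0043 (q = 0.998) per the authors' deposited table.

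Sox5 and Sox6 of the SOXD group rose in the Nfib knockouts, while Sox13, the third SOXD gene and not among the 10, had -0.38 on the log2 scale (q = 0.588 per the authors' deposited table) and 0.17 with the Nfia-line wild types. Sox5 stood at 64.1 FPKM in the Nfia-line wild types, 64.7 in the labelled Nfia knockouts, 41.9 in the Nfib-line wild types and 81.1 in the Nfib knockouts. The Nfib knockouts were the highest group and their own wild types the lowest, with both Nfia-line groups between them. The deposited log2 fold of Sox5, 0.97 (q = 0.00207, implied error at most 0.24), was the largest of the 10 genes in the authors' deposited table, and it came to 0.34 with the Nfia-line wild types. Its Nfia fold was 0.0032 (q = 0.999) per the authors' deposited table.

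Sox6 stood at 11.6 FPKM in the Nfia-line wild types, 11.8 in the labelled Nfia knockouts, 9.35 in the Nfib-line wild types and 12.8 in the Nfib knockouts. The same order of groups as for Sox5 was seen over a smaller range. Its Nfib log2 fold was 0.47 (q = 0.0349, implied error 0.15) in the authors' deposited table, and 0.14 with the Nfia-line wild types. The Nfia fold of Sox6 was 0.0049 (q = 0.999) per the authors' deposited table. Against the Nfib-line wild types, the group labelled Nfia knockout had log2 folds of 0.63 for Sox5 and 0.33 for Sox6. For both genes the fold thus varied with the wild types used. Sox5 outweighed Sox6 in every group, 5.51, 5.50, 4.48 and 6.33 times by FPKM.

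Sox9 stood at 8.87 FPKM in the Nfia-line wild types, 8.21 in the labelled Nfia knockouts, 9.81 in the Nfib-line wild types and 11.9 in the Nfib knockouts. The Nfib knockouts were again highest, by a smaller step than for Sox3 or Sox21. The log2 folds were -0.13 (q = 0.981) for Nfia and 0.30 (p = 0.0611, q = 0.417) for Nfib per the authors' deposited table, and neither passed. With the Nfia-line wild types the Nfib fold was 0.42. Directly between the knockout groups Sox9 was 0.53 higher on the log2 scale in the Nfib knockouts. The called genes Sox3, Sox21, Sox5 and Sox6 were higher there by 0.94, 0.76, 0.32 and 0.12. None of these values has a test.

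**Figure D2:**
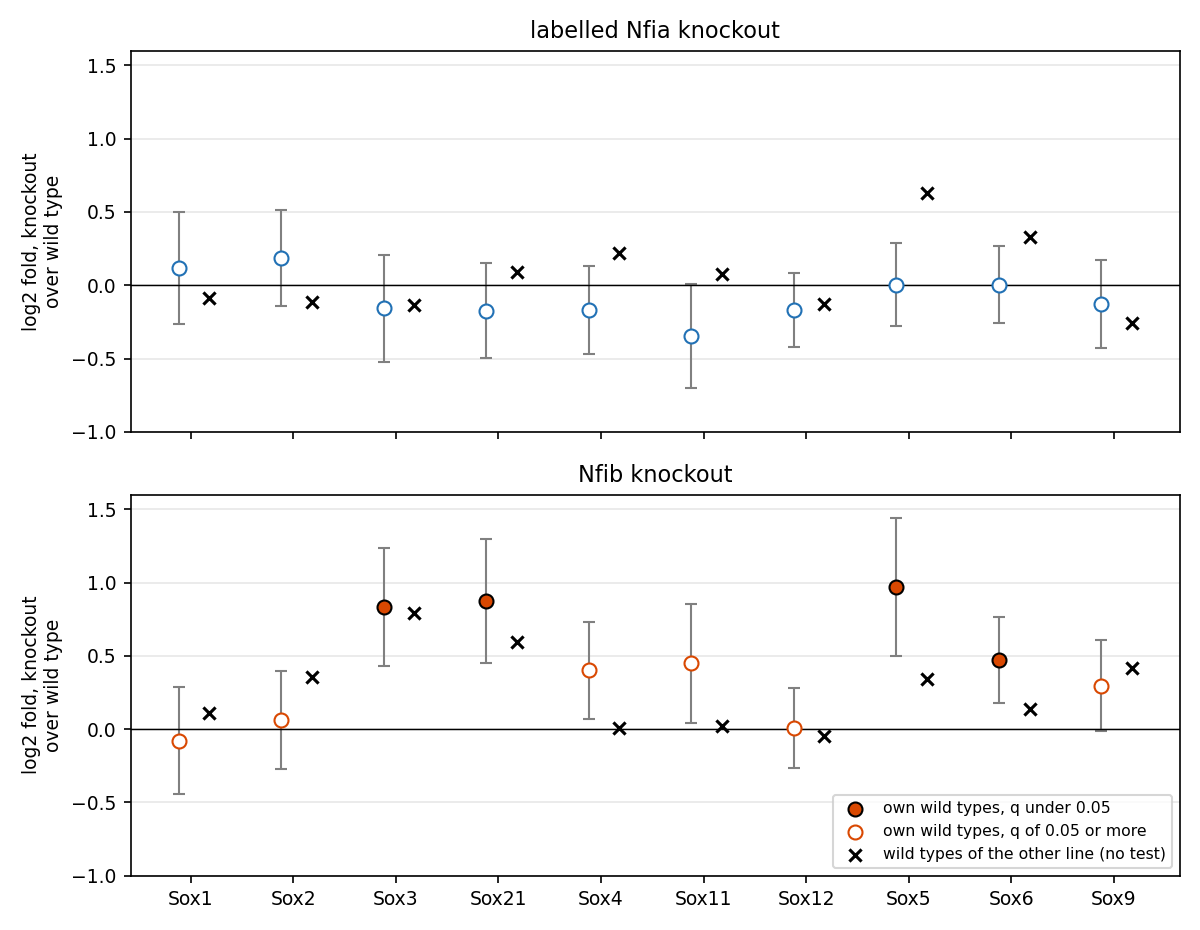
Log2 folds of the 10 SOX genes in the labelled Nfia knockout (top) and the Nfib knockout (bottom), circles against the wild types of the same line and crosses against those of the other line. Filled circles have a q under 0.05, and bars are approximate 95% intervals implied by the deposited p-values; Sox3 has nearly the same fold by either wild type, 0.83 and 0.79, while Sox5 goes from 0.97 to 0.34.

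The 2 wild-type groups differed from each other in several of these genes. The absolute log2 difference between wild types had a median of 0.28 over the 10 genes, against 0.13 over 12420 genes at 1 FPKM or more in either wild-type group. It was largest for Sox5, lower by 0.61 in the Nfib-line wild types, and smallest for Sox3, at -0.011. The median log2 fold of the 10 genes in the Nfib comparison was 0.42 in the authors' deposited table and 0.24 with the Nfia-line wild types, while the medians over all genes at 1 FPKM or more were 0.0012 and -0.0062. In the labelled Nfia knockout the median was -0.14 in the authors' deposited table and -0.0033 with the Nfib-line wild types, against -0.0091 for 12354 genes. Of the 4 genes called in the Nfib comparison, the lower of both folds was 0.79 for Sox3, 0.60 for Sox21, 0.34 for Sox5 and 0.14 for Sox6.

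**Figure D3:**
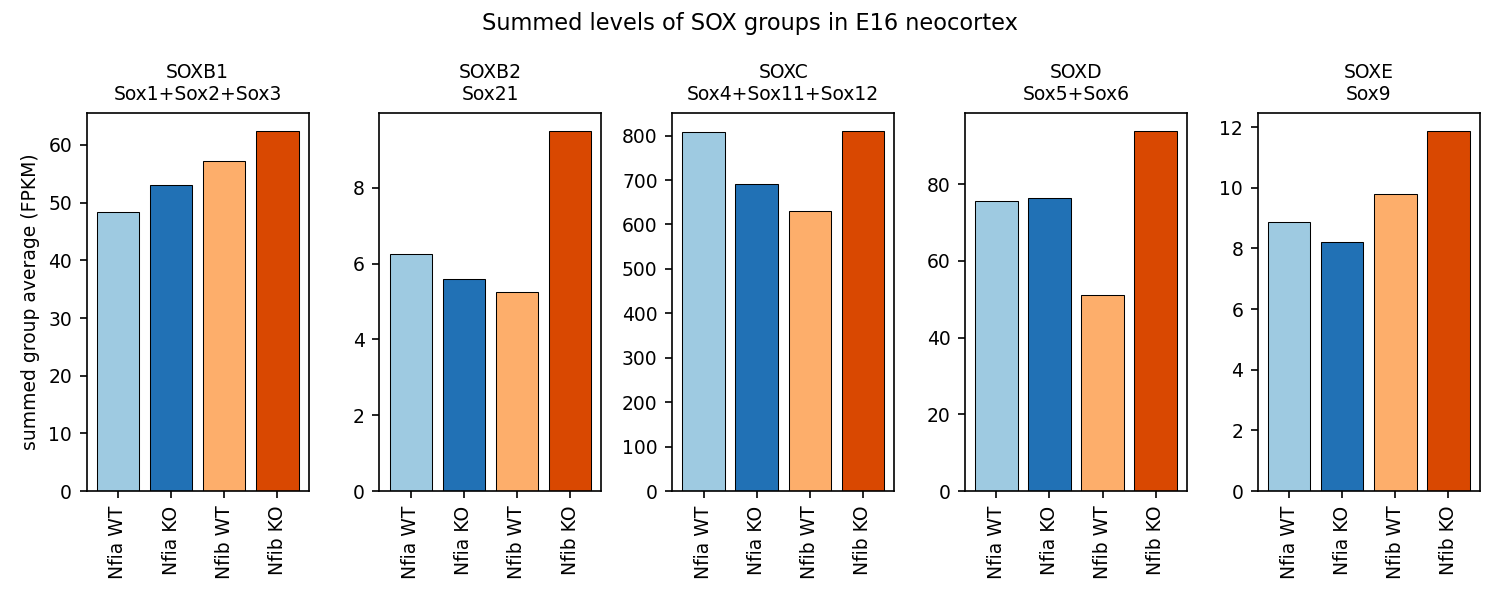
Summed group averages in FPKM for each SOX group, 1 bar per group of libraries, each panel with its own axis from 0. The SOXD sum goes from 51.2 FPKM in the Nfib-line wild types to 93.9 in the Nfib knockouts, and the SOXC sum from 629.7 to 810.4, beside 807 in the Nfia-line wild types.

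None of the other SOX genes of the table passed the threshold, beside 3.79% of all genes tested for Nfia and 5.39% for Nfib. Of 9, 6 were tested and 0 passed in either comparison in the authors' deposited Cuffdiff table, with 0 at an unadjusted p under 0.05 for Nfia and 2 for Nfib. Those 2 were the SOXE genes Sox8 and Sox10, which act in the oligodendrocyte lineage, and the authors' deposited table gives their Nfib folds as -0.56 (q = 0.0637) and -0.82 (q = 0.107) on the log2 scale. Sox8 stood at 5.96, 6.57, 8.10 and 5.39 FPKM over the groups in the order used for Sox4, and Sox10 was lowest in the Nfib knockouts too. The SOXE genes thus had Nfib folds of both signs, none past the threshold, Sox9 being above 0. With the Nfia-line wild types the Nfib folds of Sox8 and Sox10 were -0.14 and -0.32. The endothelial SOXF genes Sox7, Sox17 and Sox18 stood at 0.700 to 3.72 FPKM over all groups, and Sox13, a SOXD gene, at 1.57 to 2.35. Sox14, Sox15 and Sox30 were under 0.14 FPKM and untested.

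A list of 17 SOXB1 partners and progenitor genes had 6 higher in the Nfib knockouts, 1 lower and 10 not past the threshold. The shares over all genes tested were 2.13% higher and 3.26% lower. The median log2 fold of the 17 was 0.30, against -0.0049 for 13723 tested genes, and 0.35 with the Nfia-line wild types. Neurog1, a proneural factor, and Gli3, a factor of Hedgehog signalling, rose by 1.69 and 0.98 log2 units per the authors' deposited table (both q = 0.00207). Lhx2, a selector of cortical identity, was the gene of the list that fell, its log2 fold being -0.46 (q = 0.0357) per the authors' deposited table. Neurog1 was at a low level, 0.977 FPKM in the Nfib-line wild types and 3.11 in the Nfib knockouts. With the Nfia-line wild types the Nfib folds of Neurog1, Gli3 and Lhx2 were 1.22, 0.62 and -0.27. For Nfia 0 rose, 2 fell, beside 1.10% of all genes tested, and 15 did not pass. The 2 were Lhx2 (-0.65) and Pou3f2 (-0.86), a POU factor that binds DNA beside SOX2, both with q = 0.00286 in the authors' deposited table. Against the Nfib-line wild types Pou3f2 came to -0.25.

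Of 16 neuronal genes linked to SOXC factors, 2 rose in the Nfib knockouts, beside 2.13% of all genes tested, 0 fell and 14 did not pass, with a median log2 fold of 0.17 that was -0.024 with the Nfia-line wild types. The 2 were Nhlh1, a helix-loop-helix factor of newborn neurons (0.91), and Elavl4, a neuronal RNA-binding protein gene (0.66), both with q = 0.00207 in the authors' deposited table. With the Nfia-line wild types Elavl4 came to 0.36. Tead2, a SOXC target in mouse, had 0.44 (q = 0.0656) there. For Nfia 0 of 16 passed by the authors' Cuffdiff q-value, beside 3.79% of all genes tested, and 2 had an unadjusted p under 0.05.

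Deep-layer and subplate genes linked to SOXD factors moved both ways beside the rise of Sox5. In the Nfib knockouts 3 of 11 tested members rose, beside 2.13% of all genes tested, 2 fell, beside 3.26%, and 6 did not pass. Tbr1, a factor of corticothalamic neurons, and Nr4a2, a subplate marker, rose by 0.76 and 0.96 log2 units per the authors' deposited table (both q = 0.00207). Like Sox5, Tbr1 had a lower fold with the Nfia-line wild types, 0.14, while that of Nr4a2 was 0.75. Crym, a thyroid hormone binding protein gene that marks corticofugal neurons, fell with a log2 fold of -3.82, and Tle4, a corepressor of corticothalamic neurons, with -0.61 (both q = 0.00207 in the authors' deposited table). Crym stood at 22.5 FPKM in the Nfib-line and 3.56 in the Nfia-line wild types, and with the latter its Nfib fold was -1.12. For Nfia 1 of 11 rose, beside 2.69% of all genes tested, 2 fell, beside 1.10%, and 8 did not pass. Tle4 was 1 of the 2 that fell, with -0.59 (q = 0.00286 in the authors' deposited table). With the wild types of the other line Tle4 had -0.45 for Nfia and -0.75 for Nfib.

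Gliogenesis genes linked to Sox9 also moved both ways. In the Nfib knockouts 2 of 14 tested members rose, beside 2.13% of all genes tested, 4 fell, beside 3.26%, and 8 did not pass. Nfib itself was among the 4. The other 3 that fell, named after their values were seen, were Bcan and Tnc, genes of the extracellular matrix, and Zcchc24. Their log2 folds were -2.72, -1.72 and -0.93 (each q = 0.00207 in the authors' deposited table), and with the Nfia-line wild types -1.64, -1.14 and -0.098. The 2 that rose were Nfia (1.18) and Apcdd1 (0.93), both with q = 0.00207 in the authors' deposited table. With the Nfia-line wild types Nfia came to 0.69. Apcdd1 rose in the labelled Nfia knockout too, with 0.50 (q = 0.0134) on the log2 scale per the authors' deposited table. Its level was 31.5, 44.9, 30.9 and 57.9 FPKM in the Nfia-line wild types, the group labelled Nfia knockout, the Nfib-line wild types and the Nfib knockouts. For Nfia 1 of 12 rose, beside 2.69% of all genes tested, 3 fell, beside 1.10%, and 8 did not pass. The 3 were Nfix (-0.62), Bcan (-0.93) and Tnc (-1.14), each with q = 0.00286 in the authors' deposited table. Against the Nfib-line wild types Bcan came to -1.92.

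**Figure D4:**
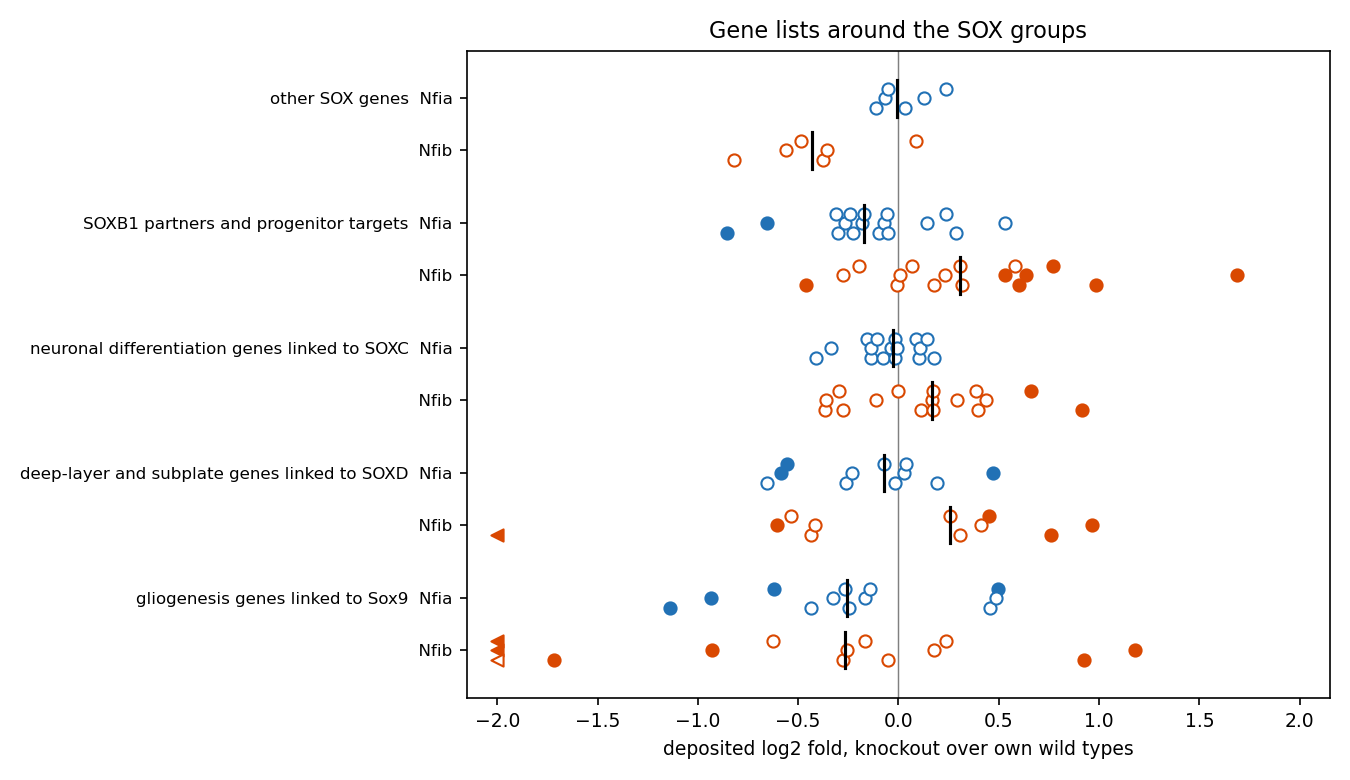
Deposited log2 folds of the tested genes of 5 lists, 1 point per gene, blue for the labelled Nfia knockout and orange for the Nfib knockout, filled where q was under 0.05, with a black bar at each median. Triangles mark folds below -2; the SOXB1-linked genes have a median of 0.30 and the other SOX genes -0.43 in the Nfib comparison.

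Markers of other cells and regions moved in the same comparisons. The shares over all genes tested were 2.13% higher and 3.26% lower for Nfib, and 2.69% higher and 1.10% lower for Nfia. In the Nfib comparison the summed level of 14 interneuron and ventral forebrain markers went from 317 to 258 FPKM with 7 lower and 0 higher, while Sox6 rose. The sum of 8 oligodendrocyte lineage markers went from 30.3 to 19.8 FPKM with 3 of 7 tested lower and 1 higher, beside the values of Sox8 and Sox10. The sum of 8 choroid plexus markers went from 1.83 to 99.8 FPKM with 5 of 6 tested higher, nearly all of it Ttr, at 94.8 FPKM, and Folr1 was at 0 in the Nfib-line wild types. The sum of 10 meningeal and fibroblast markers went from 32.0 to 20.4 FPKM with 7 lower, and that of 8 endothelial markers from 61.8 to 53.0 with 1 lower. With the wild types of the other line the median Nfib log2 fold of the meningeal markers turned from -1.77 to 0.23, and that of the interneuron and ventral markers went from -0.75 to -0.28. In the labelled Nfia knockouts the interneuron and ventral sum went from 225 to 414 FPKM with 8 of 14 higher, and Sox6 stood at 11.6 and 11.8 FPKM. The median log2 fold of those markers was 0.73, and 0.057 with the Nfib-line wild types. From wild type to labelled Nfia knockout the other sums were 23.6 and 27.7 FPKM for oligodendrocyte, 0.977 and 2.14 for choroid plexus, 17.3 and 18.5 for meningeal and 52.3 and 52.6 for endothelial markers. Of the tested markers in that comparison, 1 of 7 for oligodendrocytes and 1 of 1 for choroid plexus were higher, and none of 5 meningeal or 8 endothelial ones passed the authors' Cuffdiff q-value, nor an unadjusted p under 0.05. Of 8 neocortical markers, 3 of which stand in other lists too, 2 fell in the labelled Nfia knockout and 2 rose in the Nfib knockouts, with sums of 1154, 982, 918 and 1171 FPKM in the order used for Sox4. The part of these cells in the SOX levels was not tested.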

How the data were processed

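RNA of microdissected neocortex from embryonic day 16 mouse embryos was extracted with Trizol and made into TruSeq libraries, per the labels' protocols, 12 in 4 groups. The build mm9, Cuffdiff 2.1.1, Cufflinks, TopHat2 2.0.10 and CASAVA 1.8.2 are named in the submitters' processing notes. Strandedness and gene annotation: not given in the sources used here.

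The 1 table used holds weighted FPKM averages, 1 per group, which the authors made before deposit. Beside them stand the authors' log2 fold changes, p-values and q-values for each line, as deposited. Values per library were not used here, so depth and spread are unknown. The design had named limma for values per library. Its fallback, the authors' deposited q-value at 0.05, was used, over genes with a p under 1.

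Computed here were log2 ratios of group FPKM with a pseudocount of 0.1, which understate changes of low genes, group sums, list counts, and errors implied by deposited p-values, which assume normal folds. Tools were matplotlib 3.10.9, scipy 1.17.1, pandas 2.3.3, numpy 2.4.6 and Python 3.11.15, and the p-value adjustment and the implied error were checked on simulated data. Members and the 11 gene lists were chosen with earlier results of these data known. Named were all members, the other SOX genes, Nfia, Nfib and Nfix, and up to 4 genes per list with the smallest p (ties at the smallest p in list order), of which the text gives a part, plus Bcan, Tnc, Zcchc24, Emx1, Xist, Ddx3y and Sox2ot, chosen after values were seen. Alternatives were q of 0.01 and 0.10, a filter at 1 FPKM, pseudocounts of 0.1 and 1, the wild types of the other line or of both, and, chosen after seeing the data, centring on the median gene.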

Additional observations from a re-analysis of the deposited data

How the results depend on the processing

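The count of called SOX genes was 0 for Nfia at q 0.01, at q 0.10 and with p adjusted again over genes at 1 FPKM or more. For Nfib it was 3, 4 and 4, Sox6 being the gene that did not pass q 0.01. Pseudocounts of 0.1 and 1 and centring on the median gene moved each of the 20 folds of SOX genes by less than its implied error, though the Nfib fold of Sox12 went below 0 with both pseudocounts. The wild types changed more. With those of the other line the Nfib log2 fold was 0.60 for Sox21, 0.34 for Sox5 and 0.14 for Sox6, and with the wild types of both lines 0.61 for Sox5 and 0.28 for Sox6. The Sox3 fold moved by less than its implied error in each of these, to 0.79 with the wild types of the other line and 0.80 with both. For Sox3, Sox21 and Sox5 in the Nfib comparison that error is an upper limit. A move smaller than it thus does not show a fold to be stable. All 4 called genes kept their sign under every alternative run. Of the 16 folds that were not called, 11 moved by more than their implied error with the wild types of the other line and 6 with those of both. Over all 20 folds, 7 changed sign with the wild types of the other line. The cause was not tested. Of 32 folds of list genes, 18 moved by more than their implied error with the wild types of the other line, and no called one reversed. Over genes at 1 FPKM or more, the called markers in the Nfib comparison went from 7 to 4 for meninges and from 5 to 3 for choroid plexus.

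No paired analysis was possible because the table holds group averages and no value per library. For the same reason leaving out each library was not run, and a count of called genes rests on the authors' test alone. Each wild-type average rests on 2 libraries. Calls at low FPKM are limited by a depth that is unknown.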
